A study of Mus musculus with 8 samples.

Results

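The genes described here encode the major histocompatibility complex (MHC) molecules of the mouse and the proteins that load them with antigen. They were all 26 rows of the liver count table whose symbol starts with H2-, plus 9 named genes, B2m, Tap1, Tap2, Tapbp, Cd74, Ciita, Nlrc5, Erap1 and Cd1d1, together 35 of the 19267 genes listed. The rule itself uses symbols and no measured value. Of the 35, 25 belonged to the class I system and 10 to class II, and 31 had a mean of at least 10 counts over the 8 libraries, 23 of class I and 8 of class II. The remaining 4, H2-T-ps, H2-M2, H2-DMb2 and H2-Oa, had lower means and were only counted.

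Class I molecules sit on nearly every nucleated cell. A heavy chain pairs with beta-2-microglobulin, the product of B2m, and holds a short peptide that the proteasome has cut, the TAP transporter has carried into the endoplasmic reticulum and tapasin has helped to load, for inspection by CD8 T cells. Class II molecules are kept mainly to antigen-presenting cells, in liver chiefly Kupffer cells, dendritic cells and B cells, with some on sinusoidal endothelium. They form with the invariant chain, the product of Cd74, exchange it for peptide with the help of H2-DM, and show that peptide to CD4 T cells.

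Liver RNA was sequenced from C57BL/6 males at an age of 9 weeks, after 21 days on a Lieber-DeCarli liquid diet begun at 6 weeks. Alcohol made up 5% (w/v) of the EtOH diet, and the Control diet replaced its calories with maltose dextrin. Elf4-/- mice were given as Elf4 fl/fl with Cre recombinase under the villin promoter. The transcription factor gene Elf4 was thus deleted in intestinal epithelium and not in the liver that was measured. WT mice carried the same Cre without the floxed allele. Genotype and diet gave 4 groups of 2 libraries: WT on Control, WT on EtOH, Elf4-/- on Control and Elf4-/- on EtOH. Replicates are separate samples in the labels, with nothing said on whether each came from its own mouse, so p-values measure the spread between these samples.

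Library totals ran from 6171051 to 9157362 counts, of which the 35 genes took 0.729 to 0.97%. The Elf4-/- EtOH libraries differed most from each other, with an SD of their log2 difference of 0.681 over 9398 genes, against 0.354 to 0.504 in the other groups. Elf4 itself had 6 to 36 counts in a library, and since its deletion was intestinal these counts check the genotype labels only weakly. Hepatocyte markers were high in every library, with 5 of them summing to 31156 to 71648 CPM (the count as a share of the library's total, scaled by TMM factors). Within the Elf4-/- Control group, replicate 1 was above replicate 2 for 8 of 8 class II genes, with a median log2 difference of 1.09 in size. Within Elf4-/- EtOH, replicate 2 was the higher for 7 of 8, with a median of 0.67. The same medians were 0.15 in WT Control and 0.24 in WT EtOH.

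Most of these genes lie together. On GRCm38, 29 of the 35 are on chromosome 17, where the MHC region is, while B2m is on chromosome 2, Cd1d1 on 3, Nlrc5 on 8, Erap1 on 13, Ciita on 16 and Cd74 on 18. Of the 31 with enough counts, 19 had a promoter entry (14 of class I and 5 of class II) in the RefSeq table for GRCm38.p6, which gives 250 bases before and 50 after each gene start. Of the genes described below that rose or fell with the diet in WT, H2-Ab1, Cd74, H2-Q1, H2-T10 and Nlrc5 had no entry. The 5 promoters printed next include those of H2-DMb1, a class II gene that rose in WT, and of the class II chains H2-Aa and H2-Eb1. The values of those chains did not pass the threshold. The other promoters are those of H2-Q2, a class I gene that fell, and B2m, the shared class I light chain. Each is written 5′ to 3′ on the gene's strand, and capitals mark the Y box letters ATTGG (or CCAAT) and the interferon-stimulated response element, searched as GAAA, any 2 bases and GAAA again on either strand.
H2-Aa, chr17:34287774-34288073, minus strand: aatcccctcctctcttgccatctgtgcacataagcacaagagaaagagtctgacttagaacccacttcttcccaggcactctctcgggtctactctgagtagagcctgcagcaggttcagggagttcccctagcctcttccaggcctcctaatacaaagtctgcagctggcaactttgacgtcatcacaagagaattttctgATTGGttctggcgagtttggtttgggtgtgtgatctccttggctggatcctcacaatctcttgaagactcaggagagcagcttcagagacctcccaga
H2-Eb1, chr17:34305617-34305916, plus strand: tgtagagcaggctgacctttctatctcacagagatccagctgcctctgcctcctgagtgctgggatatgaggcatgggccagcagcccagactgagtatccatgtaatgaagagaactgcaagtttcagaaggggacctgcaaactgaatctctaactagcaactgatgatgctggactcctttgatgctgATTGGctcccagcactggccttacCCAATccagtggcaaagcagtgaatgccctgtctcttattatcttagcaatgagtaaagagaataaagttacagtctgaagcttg
H2-DMb1, chr17:34152941-34153240, plus strand: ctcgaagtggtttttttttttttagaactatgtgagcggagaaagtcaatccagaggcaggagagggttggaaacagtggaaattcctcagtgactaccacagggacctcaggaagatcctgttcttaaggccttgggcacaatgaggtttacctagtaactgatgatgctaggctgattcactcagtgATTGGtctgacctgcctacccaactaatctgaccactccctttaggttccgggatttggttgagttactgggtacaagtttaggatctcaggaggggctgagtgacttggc
H2-Q2, chr17:35342057-35342356, plus strand: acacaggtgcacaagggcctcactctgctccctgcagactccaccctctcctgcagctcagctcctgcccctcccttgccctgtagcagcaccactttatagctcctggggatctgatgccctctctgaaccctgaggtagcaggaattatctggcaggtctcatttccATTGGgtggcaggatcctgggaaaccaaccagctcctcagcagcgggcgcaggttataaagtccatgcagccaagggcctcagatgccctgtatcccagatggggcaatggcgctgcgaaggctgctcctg
B2m, chr2:122147437-122147736, plus strand: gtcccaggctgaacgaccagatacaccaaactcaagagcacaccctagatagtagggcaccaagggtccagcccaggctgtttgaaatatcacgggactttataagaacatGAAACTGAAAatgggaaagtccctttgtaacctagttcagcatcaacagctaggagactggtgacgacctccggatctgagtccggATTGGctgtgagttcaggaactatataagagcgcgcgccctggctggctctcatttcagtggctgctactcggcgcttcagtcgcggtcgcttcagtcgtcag

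The Y box stood 48 bases before the gene start in H2-Aa, 61 before in H2-DMb1, 57 before in H2-Ob and 53 before in B2m, and H2-Eb1 held a pair at 59 and 35 bases before. It is the letter pattern that the factor NF-Y reads in MHC promoters. On either strand it was found in 5 of 5 class II members (6 windows) and 12 of 14 class I members (15 windows). A member was counted if any of its windows held it, while the share over all 32851 promoter windows, 37.4%, is per window. H2-DMa has 2 windows, and only the second held a Y box, 198 bases before the start. The response element was found in 4 of 14 class I members (B2m, H2-T23, H2-T22 and Erap1) and in 0 of 5 class II members, against 3.44% of windows. The kappa B letters GGATTCCC occurred in H2-K1, H2-D1, H2-Q7 and H2-Q6 and in no class II window, against 1.02% overall. The STAT letters TTCNNNGAA occurred in H2-M3 alone, against 8.3%. These are matches of letters, some of them in near-identical gene copies, and not measured binding.

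Levels between genes were compared per kilobase of annotated exon. B2m was the highest at 4141 CPM per kilobase over the 8 libraries, followed by the heavy chains H2-K1 at 576, H2-Q10 (a secreted class I molecule made mainly in liver) at 409 and H2-D1 at 212. Cd1d1, which presents lipids to NKT cells, stood at 93.5. The highest class II gene was Cd74 at 24.8, and the chains H2-Eb1, H2-Ab1 and H2-Aa lay at 9.85, 8.78 and 8.55, with group ranges that overlapped. The lowest were H2-Ob at 0.276 and the class II transactivator Ciita at 0.225. B2m, H2-K1, H2-Q10 and H2-D1 together made up 86.3 to 90.1% of all class I CPM in a library, and H2-Aa, H2-Ab1, H2-Eb1 and Cd74 made up 88.2 to 92.5% of class II CPM.

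**Figure D1:**
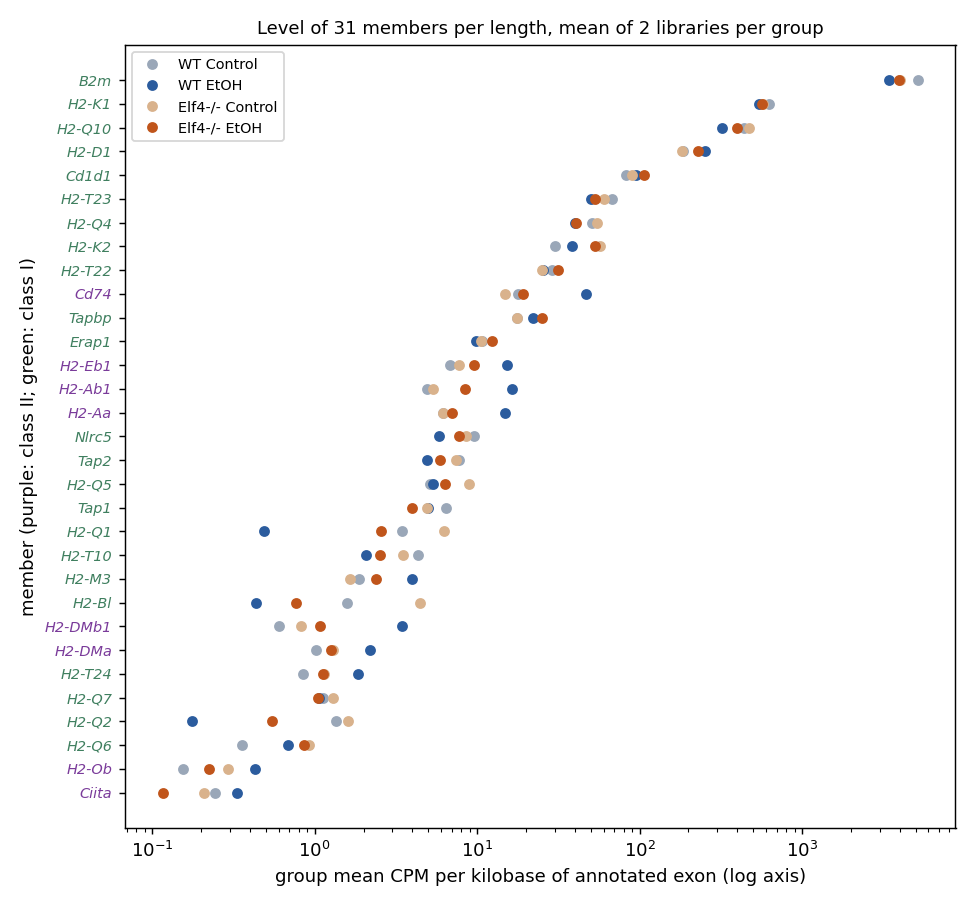
Group mean level of the 31 genes averaging 10 or more counts, in CPM per kilobase of annotated exon on a log axis, with 1 point per group of 2 libraries and gene names in purple for class II and green for class I. B2m leads at 4141 over all libraries, Ciita is last at 0.225, and the WT EtOH points stand to the right of the others for most class II genes and far to the left for H2-Q1 and H2-Q2.

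The first comparison asked what the alcohol diet did in WT livers. Cd74, H2-Ab1 and H2-DMb1 rose, 3 of the 8 class II genes tested, and none fell. H2-Q1, H2-Q2, H2-T10 and Nlrc5 fell, 4 of 23 class I genes, and none rose. Over all 13993 genes tested, 10.8% were called higher and 10.8% lower at a Benjamini-Hochberg adjusted p under 0.05 in edgeR's quasi-likelihood test.

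H2-Ab1, the beta chain of the classical class II molecule H2-A, had 12.7 and 12.5 CPM in the WT Control libraries, and 45.0 and 39 CPM with EtOH. The Elf4-/- libraries gave 17.8 and 9.85 CPM under Control, and 14.8 and 28.7 under EtOH. The WT EtOH libraries were the 2 highest of the 8. The log2 fold change in WT was 1.74 ± 0.35 (SE, adjusted p of 0.00875 in edgeR), a 3.33-fold rise, and lay between 1.63 and 1.83 with any library left out. The call was lost without WT Control replicate 1, WT Control replicate 2 or WT EtOH replicate 1.

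Cd74, the invariant chain that occupies the groove of newly made class II molecules, had 31.9 and 28 CPM in WT livers under Control against 82.6 and 75.6 under EtOH. The Elf4-/- values were 34.3 and 15.7 CPM under Control and 21.2 and 43.3 under EtOH. All 6 other libraries stayed below both WT EtOH libraries. The rise in WT was 2.64-fold, a log2 fold change of 1.40 ± 0.38 (SE, adjusted p of 0.0282 in edgeR), and it lay between 1.31 and 1.5 with any library left out. It was no longer called when any 1 of the 4 WT libraries was left out.

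H2-DMb1, a chain of the H2-DM molecule that exchanges the invariant chain fragment for peptide, had 0.559 and 1.47 CPM in WT livers under Control and 4.80 and 6.83 under EtOH. Elf4-/- Control gave 2.46 and 0.298 CPM and Elf4-/- EtOH 1.91 and 1.72. The level was low and the replicates of each Control group lay far apart, while the WT EtOH pair stood above all others. Its log2 fold change in WT was 2.5 ± 0.77 (SE, adjusted p of 0.0447 in edgeR), and 15.8% of its 75-base windows are shared with its neighbour H2-DMb2, so reads of the pair may have been split. With 1 library left out the value ran from 1.97 to 3.35, and it was not called when that was any 1 of the 4 WT libraries.

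H2-Aa, the alpha chain of H2-A, had 24.1 and 22.8 CPM in the WT livers under Control and 62.2 and 51.1 under EtOH, and Elf4-/- livers had 33.5 and 13.1 under Control and 14.5 and 38.6 under EtOH. H2-Eb1, the H2-E beta chain, had 13.8 and 12.7, 32.6 and 26.8, 21.8 and 8.06, and 16.3 and 21.1 CPM in the same order. For both, the 2 WT groups did not overlap and the 2 Elf4-/- groups did. Their log2 fold changes in WT were 1.27 ± 0.46 (adjusted p of 0.0768 in edgeR) and 1.16 ± 0.38 (SE, adjusted p of 0.0547 in edgeR), just short of the threshold. C57BL/6 mice make no H2-E alpha chain, so this beta chain has no partner at the cell surface.

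The other class II genes had positive values that did not pass. H2-DMa, the second H2-DM chain, was at 3.54 and 3.50 CPM in WT livers under Control and 7.97 and 7.13 under EtOH, with a log2 fold change of 1.10 ± 0.37 (SE, adjusted p of 0.0616 in edgeR). H2-Ob, a chain of the H2-DM inhibitor H2-O, gave 1.48 ± 0.71 (SE, adjusted p of 0.161 in edgeR). Ciita, the master regulator of class II promoters, had 2.98 and 1.66 CPM in WT livers under Control and 2.91 and 3.46 under EtOH, and its log2 fold change was 0.46 ± 0.69 (SE, adjusted p of 0.665 in edgeR). Its WT groups overlapped.

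**Figure D2:**
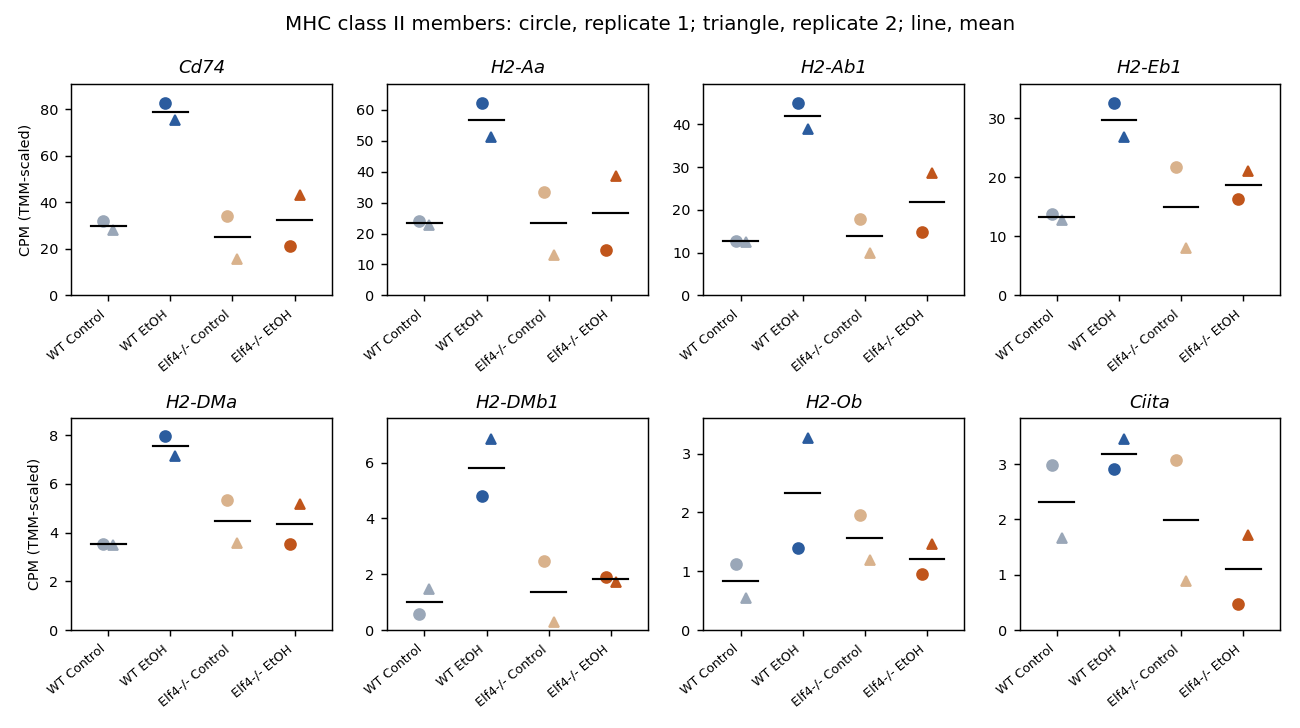
CPM of the 8 class II genes in each library, with a circle for replicate 1, a triangle for replicate 2 and a line at the mean of each group of 2, on axes that start at 0. In 7 of 8 panels both WT EtOH points lie above both WT Control points, as they did for 34.1% of all genes. In all 8 the Elf4-/- Control and Elf4-/- EtOH points overlap, and the share of all genes that did so was not counted.

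Across the 8 class II genes the median log2 fold change in WT was 1.34, with 8 of 8 above 0, beside a median of 0.01 over all genes. WT EtOH did not overlap WT Control in 7 of 8, all higher, where 34.1% of all genes were higher without overlap. Summed over the 10 class II genes, CPM was 87.5 ± 5.93 in WT Control and 228 ± 17.6 in WT EtOH (SD, n = 2). The count of calls was sensitive to single libraries: it was 0 of 8 without either WT Control library or without WT EtOH replicate 1, 1 of 8 (H2-Ab1) without WT EtOH replicate 2, and 6 of 8 without either Elf4-/- EtOH library. Where a WT library was left out, its partner was assumed to vary as the other groups did. H2-Aa, H2-DMa and H2-Eb1 joined the called genes without an Elf4-/- EtOH library.

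Among class I genes the largest fold changes were those of 2 neighbouring genes of the Q region, which holds non-classical class I genes. H2-Q1 (chr17:35320405-35325099, plus strand) had 10.3 and 9.38 CPM under Control and 1.26 and 1.53 under EtOH for WT, and 19.5 and 16.6 against 5.10 and 9.55 CPM for Elf4-/-. The WT EtOH libraries were the lowest by far and the Elf4-/- Control libraries the highest. In WT it fell 6.92-fold, with a log2 fold change of −2.79 ± 0.38 (SE, adjusted p of 0.00248 in edgeR). In this comparison it was the 1 gene of the 31 that stayed called with each of the 8 libraries left out in turn, at −2.95 to −2.67.

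H2-Q2 (chr17:35342242-35346762, plus strand) was counted 14 and 18 times under Control and 2 and 5 times under EtOH for WT, then 45 and 16 times under Control and 5 and 12 times under EtOH for Elf4-/-. Both EtOH groups stayed under both Control groups. The log2 fold change in WT was −2.87 ± 0.69 (SE, adjusted p of 0.0182 in edgeR), resting on few counts. Between H2-Q1 and other genes 10.9% of 75-base windows are shared, and for H2-Q2 8.1%, so the 2 genes are not fully separate measurements.

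H2-T10 (chr17:36115876-36121465, minus strand), related to a ligand of gamma delta T cells, had 13.8 and 15.6 CPM in WT livers under Control and 7.59 and 6.62 under EtOH. Elf4-/- libraries lay at 12.5 and 11.5 CPM under Control and 6.38 and 10.9 under EtOH. Every EtOH library was under every Control library. The WT log2 fold change was −1.05 ± 0.30 (SE, adjusted p of 0.0321 in edgeR). GENCODE lists it as a polymorphic pseudogene, 16.0% of its windows are shared with other genes, and it overlaps the antisense transcript BC023719, and whether the counting used strand is not given.

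Nlrc5 (chr8:94434356-94527272, plus strand), the transactivator of class I promoters, had 81.5 and 80.8 CPM under Control and 51.3 and 47.1 under EtOH for WT, then 75.6 and 70.3 under Control and 54.2 and 77.1 under EtOH for Elf4-/-. The fall was clear of replicate spread in WT, and the Elf4-/- EtOH pair straddled the Control values. Its WT log2 fold change was −0.72 ± 0.21 (SE, adjusted p of 0.0344 in edgeR), a 1.65-fold fall. Leaving out any 1 of the 4 WT or the 2 Elf4-/- Control libraries ended the calls for H2-T10 and Nlrc5, and leaving out any 1 of the WT libraries ended that for H2-Q2, so that 1 class I gene was called without a WT library and 2 without an Elf4-/- Control library. All 3 kept their sign in each case.

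The abundant class I chains did not pass. B2m had 4889 and 3976 CPM under Control and 3121 and 2789 under EtOH for WT, then 3015 and 3876 under Control and 3124 and 3704 under EtOH for Elf4-/-, and its WT log2 fold change was −0.58 ± 0.29 (SE, adjusted p of 0.173 in edgeR). The classical heavy chain gene H2-K1 had 1787 and 1880, 1728 and 1459, 1641 and 1735, and 1503 and 1815 CPM in the same order, a log2 fold change of −0.20 ± 0.25 (SE, adjusted p of 0.596 in edgeR). H2-D1, the other classical heavy chain of these mice, had 426 and 525, 710 and 597, 453 and 493, and 596 and 580 CPM. Its value went the other way, at 0.46 ± 0.23 (SE, adjusted p of 0.178 in edgeR), and every EtOH library lay above every Control library.

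Hepatocytes, the most numerous cells of the liver, also carry class I, and their 5 markers had lower values under EtOH in WT, with a median log2 fold change of −0.62. Their summed CPM was 51199 and 71648 under Control and 37057 and 31156 under EtOH for WT, then 62717 and 70992 under Control and 40093 and 52870 under EtOH for Elf4-/-. The WT groups did not overlap. Of the 5, Apoa1, an apolipoprotein gene, was called lower, at −2.34 ± 0.42 (SE, adjusted p of 0.00592 in edgeR). The part of the hepatocyte marker levels in the class I values was not tested.

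The peptide supply side was mixed. Tap1, the first TAP subunit, had 31.7 and 38.6 CPM under Control and 31.7 and 23.0 under EtOH for WT, then 28.1 and 25.5 under Control and 15.9 and 27.5 under EtOH for Elf4-/-, and its WT log2 fold change was −0.36 ± 0.27 (SE, adjusted p of 0.364 in edgeR). Tap2, the second, had 27.6 and 31.1, 17.8 and 19.5, 32.6 and 23.1, and 20.2 and 24.3 CPM, at −0.65 ± 0.22 (SE, adjusted p of 0.062 in edgeR). Tapbp, which encodes tapasin, had 55.9 and 71.4, 82.7 and 78.5, 64.5 and 62.5, and 95.8 and 85.3 CPM, at 0.34 ± 0.19 (SE, adjusted p of 0.228 in edgeR). Tap2 lay lower and Tapbp higher under EtOH in WT without overlap. Erap1, the peptidase that trims peptides to length, ran from 71.4 to 92.2 CPM over the 8 libraries and gave −0.12 in WT. Exons of Tap1, Tap2, Tapbp and Erap1 overlap those of other genes.

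Of the remaining class I genes, H2-Q10, H2-T23 (Qa-1, a ligand of an inhibitory NK cell receptor), H2-Q4, H2-T22, H2-Q7 and H2-Bl had negative WT values of −0.45, −0.42, −0.33, −0.19, −0.10 and −1.84, and none passed. Cd1d1, H2-K2, H2-Q5, H2-M3 (which presents formylated bacterial peptides), H2-T24 and H2-Q6 had positive values of 0.21, 0.35, 0.05, 1.08, 1.11 and 0.94, also without a call. GENCODE lists H2-K2, H2-Q5 and H2-Bl as pseudogenes of some kind.

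Over the 23 class I genes the median log2 fold change in WT was −0.20, but with scaling by library totals alone it was 0.23, so the sign of that median depends on the scaling. That scaling moved the median of all genes by 0.43. With it, 3 class I genes were called higher (Cd1d1, H2-D1 and Tapbp) and 2 lower (H2-Q1 and H2-Q2), against 0 higher and 4 lower with TMM. Without overlap between WT groups, 12 class I genes were lower and 6 higher, against 32.7% of all genes lower and the 34.1% higher given above. Summed over the 25 class I genes, TMM-scaled CPM was 9685 ± 208 in WT Control and 7538 ± 706 in WT EtOH (SD, n = 2). The sums were 8730 ± 613 in Elf4-/- Control and 8462 ± 1258 in Elf4-/- EtOH.

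**Figure D3:**
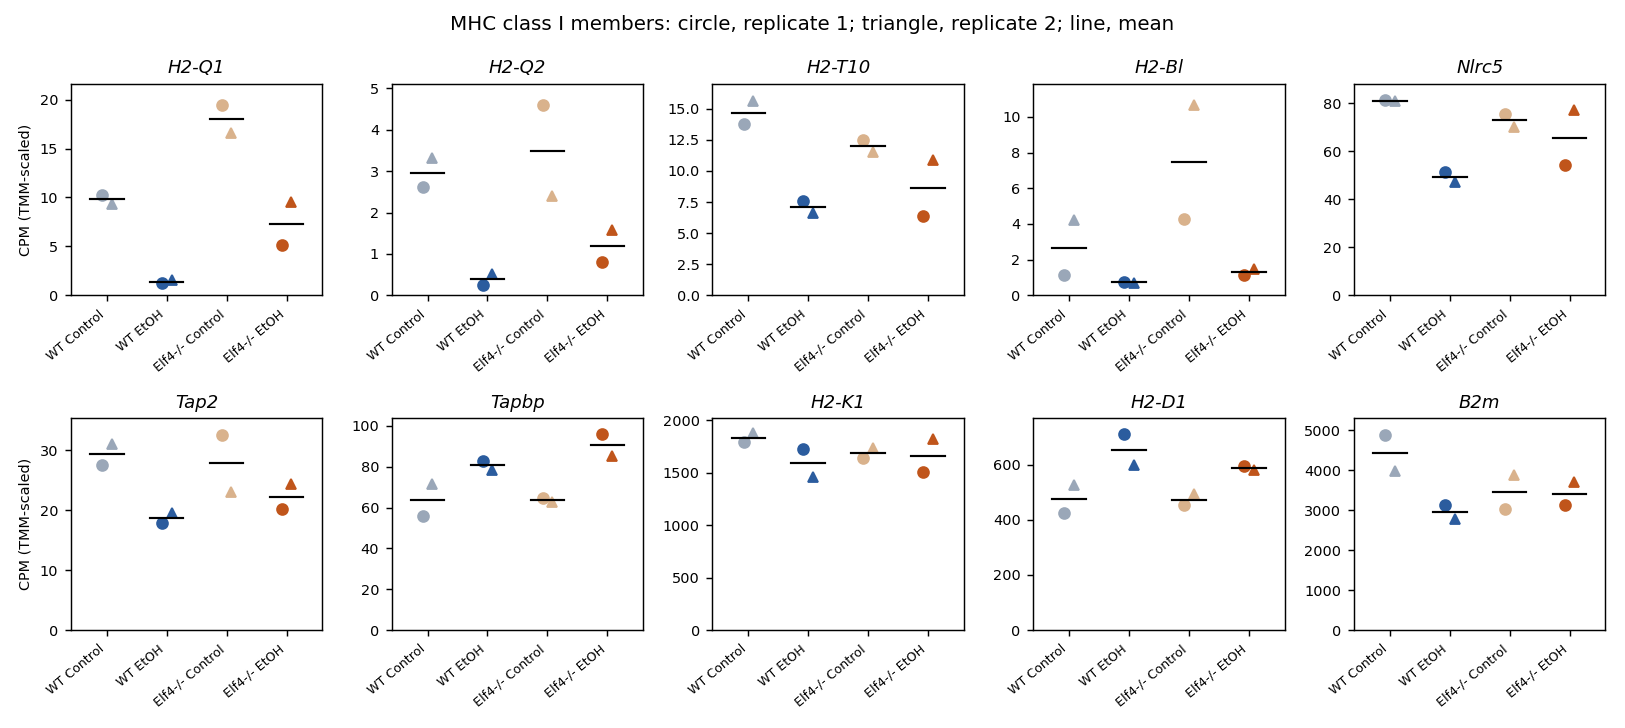
CPM of 10 class I genes in each library, with a circle for replicate 1, a triangle for replicate 2 and a line at the mean of each group of 2, on axes that start at 0. H2-Q1 falls from 10.3 and 9.38 to 1.26 and 1.53 in WT with the diet, while H2-K1 stays between 1459 and 1880 in all 8 libraries.

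Other genes of the antigen presentation pathway were read from lists in the same WT comparison. Of 10 class I peptide supply and loading genes, the chaperone gene Canx rose (log2 fold change 1.19 ± 0.19, SE), and the chaperone gene Calr (−1.36 ± 0.23) and the immunoproteasome subunit gene Psmb9 (−0.99 ± 0.27) fell, with edgeR adjusted p of 0.00363, 0.00459 and 0.0269. Psmb9 overlaps Tap1 on the opposite strand. Of 8 class II processing genes, 3 lysosomal proteases rose, Ctss (1.68 ± 0.30), which cuts the invariant chain, Ctsd (1.15 ± 0.30) and Lgmn (1.34 ± 0.25), with edgeR adjusted p of 0.00582, 0.0244 and 0.00708, and none fell. The median over this list was 0.84.

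Of 16 regulators of MHC promoters and interferon signalling, 3 fell and none rose. They were the interferon regulatory factors Irf1 (log2 fold change −1.0 ± 0.19) and Irf2 (−1.72 ± 0.27) and the interferon signal transducer Stat2 (−0.92 ± 0.24), with edgeR adjusted p of 0.00703, 0.00359 and 0.0243. Of 5 other class I-like chains tested, Fcgrt, the neonatal Fc receptor, rose by 1.04 and Hfe, the iron regulator, by 0.60 (adjusted p of 0.00801 and 0.043 in edgeR). Of 12 interferon-gamma-induced GTPases and chemokines, Iigp1 alone was called, at −1.29 (adjusted p of 0.0134 in edgeR). Of 5 costimulation genes 0 were called in edgeR, with 1 at an unadjusted p under 0.05, where 36.4% of all genes lay.

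Markers of some, but not all, of the cells that carry class II were called higher with the diet as well. All 10 Kupffer cell markers were called higher in WT EtOH, and their summed CPM was 291 and 225 under Control and 827 and 726 under EtOH for WT, then 219 and 211 under Control and 322 and 298 under EtOH for Elf4-/-. All 6 sinusoidal endothelium markers were called higher too, with sums of 100 and 52.6, 260 and 319, 147 and 148, and 205 and 137 CPM. Of 5 stellate cell markers 3 were called higher, and of 3 monocyte markers tested 2 were, Ly6c2 and Lyz2. Dendritic cell markers had sums of 24.8 and 11.6, 30.3 and 29.4, 35.5 and 28.6, and 20.1 and 21.4 CPM in the same order. Of the 6 tested, 4 were higher and 0 lower in WT EtOH without overlap, where 34.1% of all genes were higher. Dendritic cell markers and B cell markers (sums of 4.46 to 16.9 CPM) had 0 calls in edgeR, with 1 dendritic and 0 B cell markers at an unadjusted p under 0.05. No marker of either list was at 0 in every library.

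The summed CPM of H2-Aa, H2-Ab1, H2-Eb1 and Cd74, divided by that of the Kupffer cell markers, was 0.283 and 0.338 under Control and 0.269 and 0.265 under EtOH for WT. For Elf4-/- the ratio was 0.490 and 0.221 under Control and 0.208 and 0.442 under EtOH. The WT ratios to the Kupffer cell markers lay within 0.265 to 0.338, with both EtOH libraries below both Control libraries. The replicates of each Elf4-/- group straddled that range. Ratios of the same sum to other markers were wider apart in WT, at 0.82, 1.44, 0.854 and 0.603 for sinusoidal endothelium in the order Control then EtOH. For dendritic cell markers they were 3.32, 6.56, 7.33 and 6.54, and for B cell markers 6.6, 7.37, 32 and 11.4. The class II sum itself was 82.4 and 76.0, 222 and 192, 108 and 46.7, and 66.8 and 132 CPM in the order of the groups. In whole liver, fewer cells of a type and less RNA per cell cannot be told apart, and the part of the marker levels in the class II values was not tested.

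**Figure D4:**
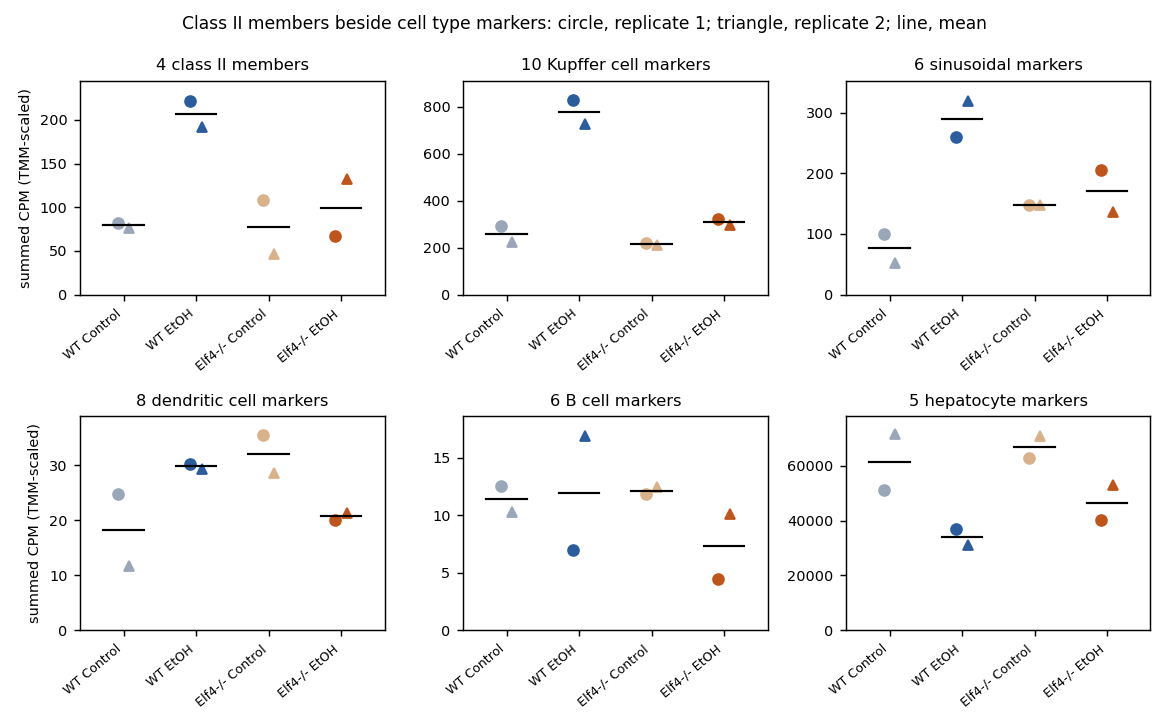
Summed CPM per library of H2-Aa, H2-Ab1, H2-Eb1 and Cd74 beside the sums of 5 cell type marker lists, with a circle for replicate 1, a triangle for replicate 2 and a line at the group mean. The class II sum and the Kupffer cell sum are highest in both WT EtOH libraries, at 222 and 192 and at 827 and 726, and within the Elf4-/- groups the class II sum varies far more between replicates than the Kupffer cell sum does.

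The diet was then compared within Elf4-/- livers. No class II or class I gene was called in edgeR, where 1.71% of all genes were called higher and 1.18% lower. At an unadjusted p under 0.05, where 21.2% of all genes lay, there were 0 class II genes and 4 of 23 class I genes, Tapbp higher and H2-Q1, H2-Q2 and H2-Bl lower. DESeq2 called 0 class II genes and 2 class I genes, H2-Q1 and H2-Bl, both lower, where it called 811 of all genes. H2-Q1 had a log2 fold change of −1.29 ± 0.32 (SE, adjusted p of 0.0599 in edgeR). For H2-Bl the value was −2.5 ± 0.67 (SE, adjusted p of 0.0738 in edgeR), from 4.30 and 10.7 to 1.12 and 1.46 CPM, without overlap.

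Class II values in Elf4-/- livers were small beside their replicate spread. H2-Ab1 had the highest, at 0.64 ± 0.34 (SE, adjusted p of 0.304 in edgeR), Cd74 0.36 ± 0.38 (SE, adjusted p of 0.626 in edgeR) and Ciita the lowest, at −0.85 ± 0.74 (SE, adjusted p of 0.547 in edgeR). All 8 class II genes overlapped between the diets, but the share of all genes that overlapped in Elf4-/- was not counted. The median was 0.24 with 5 of 8 above 0, and single libraries turned it, to −0.31 without Elf4-/- Control replicate 2 and −0.33 without Elf4-/- EtOH replicate 2, while it was 1.03 without Elf4-/- Control replicate 1. Summed class II CPM was 87.4 ± 48.7 in Elf4-/- Control and 109 ± 48.9 in Elf4-/- EtOH (SD, n = 2). The class I median was −0.15, but leaving out replicate 1 of Elf4-/- EtOH gave 0.07, and leaving out replicate 2 gave −0.45 and 2 calls (H2-Q1 and H2-Q5). Of the Kupffer cell markers 2 of 10 were called higher, Marco and C1qb. Among the pathway lists Irf2 alone was called, at −1.45 (adjusted p of 0.0274 in edgeR).

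**Figure D5:**
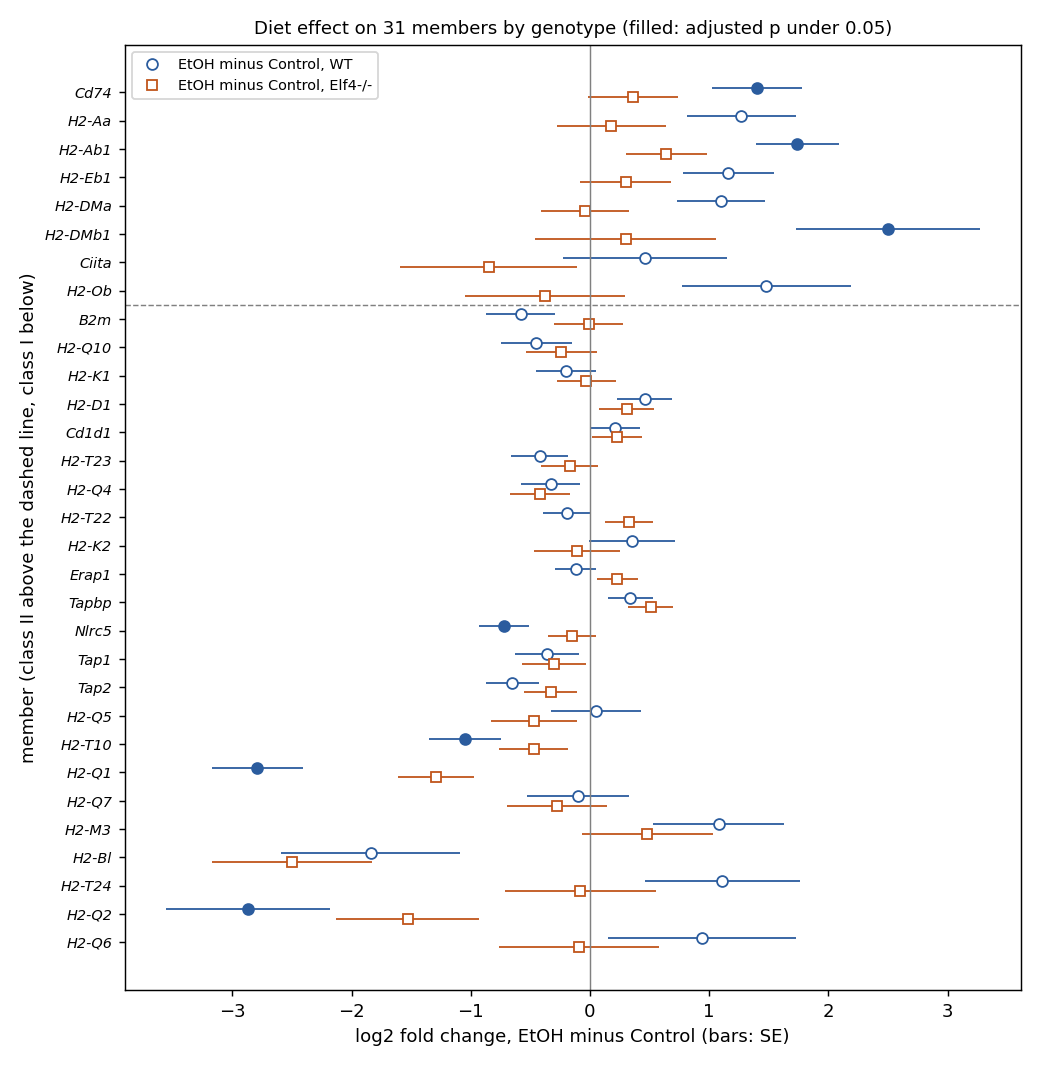
Log2 fold change of EtOH over Control for 31 genes, blue circles for WT and orange squares for Elf4-/-, with bars for the SE of the edgeR fit and filled symbols for an adjusted p under 0.05. The 7 filled symbols are all in WT, from H2-Q2 at −2.87 and H2-Q1 at −2.79 to H2-DMb1 at 2.5, and the difference between the genotypes itself passed for none of the 31.

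Averaged over both genotypes, the diet comparison used all 8 libraries and includes the WT libraries already described. Class II genes H2-Ab1 (log2 fold change 1.19 ± 0.24) and Cd74 (0.88 ± 0.27) were called higher, 2 of 8, with edgeR adjusted p of 0.00633 and 0.0346, where 14.1% of all genes were higher. The class II median was 0.73. Of 23 class I genes 6 were called lower, where 13.8% of all genes were, and 1 higher. With scaling by library totals the class I split was 2 higher (H2-D1 and Tapbp) and 3 lower (H2-Bl, H2-Q1 and H2-Q2), and the class I median of −0.21 became −0.01.

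The class I genes lower in this comparison were H2-Q1 (−2.04 ± 0.25), H2-Q2 (−2.20 ± 0.46), H2-Bl (−2.17 ± 0.50), H2-T10 (−0.76 ± 0.21), Tap2 (−0.49 ± 0.16) and Nlrc5 (−0.44 ± 0.15), with edgeR adjusted p of 0.00083, 0.00704, 0.0116, 0.0233, 0.0419 and 0.0479. Tapbp was higher at 0.43 ± 0.13 (SE, adjusted p of 0.0401 in edgeR). H2-Bl had 1.12 and 4.23 CPM in WT livers under Control and 0.759 and 0.713 under EtOH, with the Elf4-/- values given above. For H2-Q2 and H2-T10 all 4 EtOH libraries were under all 4 Control libraries. For Tapbp, and for H2-D1, which was not called, all 4 were above. The share of all genes that separated in this way was not counted.

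H2-Q1 and H2-Q2 stayed called with each library left out, as did H2-Ab1 among class II genes. The class I count was 3 or 4 when a WT or an Elf4-/- Control library was left out, 4 without Elf4-/- EtOH replicate 1 and 11 without Elf4-/- EtOH replicate 2. The class II count was 1 when a WT library was left out, without Elf4-/- Control replicate 2 or without Elf4-/- EtOH replicate 2, 5 without Elf4-/- Control replicate 1 and 4 without Elf4-/- EtOH replicate 1. The class II median moved to 1.16, 0.47 and 0.46 without Elf4-/- Control replicate 1, its replicate 2 and Elf4-/- EtOH replicate 2, and the class I median to −0.05 and −0.40 without Elf4-/- EtOH replicate 1 and replicate 2.

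More pathway genes passed with both genotypes together. In class II processing 5 of 8 rose, adding Ctsl (0.82 ± 0.27) and Ctsb (0.66 ± 0.17) to Ctss, Ctsd and Lgmn, with edgeR adjusted p of 0.0454 and 0.0194 for those 2. The replicates of Ctsl lay far apart in Elf4-/- EtOH, at 626 and 253 CPM, against 229 and 215 in Elf4-/- Control. In WT it had 165 and 252 CPM under Control and 356 and 301 under EtOH. The interferon-gamma-induced guanylate-binding proteins Gbp2 (1.48 ± 0.35), Gbp4 (0.88 ± 0.27) and Gbp5 (1.36 ± 0.43) and the chemokine Cxcl10 (1.5 ± 0.34) rose, and Iigp1 (−0.66 ± 0.20) fell, 5 of 12 called, with edgeR adjusted p from 0.0098 to 0.0414. Among regulators, Irf1, Irf2, Stat2 and the NF-Y subunit gene Nfyc fell and the interferon-gamma receptor gene Ifngr1 rose by 0.61.

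Genotype was compared under EtOH to ask how livers of alcohol-fed Elf4-/- mice differed from those of WT mice. This comparison and that of the diet in WT share the WT EtOH libraries. No class II or class I gene was called in edgeR, where 0.143% of all genes were in either direction. At an unadjusted p under 0.05, where 10.5% of all genes lay, 4 of 8 class II genes (Cd74, H2-Ab1, H2-Aa and H2-DMb1) were lower and 1 of 23 class I genes (H2-Q1) was higher. DESeq2 called 0 class II genes and 1 class I gene, H2-Q1, where it called 180 of all genes.

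All 8 class II values were below 0, from −0.66 to −1.67 with a median of −1.01, and 7 of 8 were lower in Elf4-/- EtOH without overlap, against 21.4% of all genes. Cd74 gave −1.29 ± 0.38 (SE, adjusted p of 0.262 in edgeR), H2-Ab1 −0.94 ± 0.33 (SE, adjusted p of 0.353 in edgeR) and H2-Aa −1.08 ± 0.46 (SE, adjusted p of 0.45 in edgeR). Leaving out replicate 2 of Elf4-/- EtOH brought these 3 past the threshold, at −1.91, −1.51 and −1.97 (adjusted p of 0.0277, 0.0373 and 0.0464 in edgeR), and the median was −1.56. Without replicate 1 of that group the median was −0.61 and 0 were called. Ciita gave −1.48 ± 0.72 (SE, adjusted p of 0.51 in edgeR), from 2.91 and 3.46 CPM in WT EtOH to 0.478 and 1.72 in Elf4-/- EtOH.

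In the same comparison all 10 Kupffer cell markers were lower at an unadjusted p under 0.05, and Clec4f and Cd5l were called lower (log2 fold change −1.32 ± 0.20 and −1.69 ± 0.22, SE, edgeR adjusted p = 0.0418 and 0.0268). Their part in the class II values was not tested. Sinusoidal endothelium markers had 0 calls in edgeR, with 3 of 6 lower at an unadjusted p under 0.05. Of the class II processing genes 0 were called and 4 of 8 were lower at an unadjusted p under 0.05, and 0 genes of any pathway list were called in edgeR. At an unadjusted p under 0.05, 3 interferon-gamma-induced genes and 1 loading gene were higher, and 1 loading gene and 1 class I-like chain were lower.

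H2-Q1 had the largest class I value under EtOH, 2.38 ± 0.38 (SE, adjusted p of 0.0575 in edgeR), a 5.20-fold difference from 1.26 and 1.53 CPM in WT EtOH to 5.10 and 9.55 in Elf4-/- EtOH. It was called when either Elf4-/- EtOH library was left out. Over class I genes the median was 0.26, but 0.03 with scaling by library totals and −0.09 without Elf4-/- EtOH replicate 2, with 9 of 23 higher and 3 lower without overlap, against 20.0% of all genes higher and the 21.4% lower given above. The hepatocyte markers had values above 0 in 5 of 5, with a median of 0.41 and 0 called in edgeR (2 at an unadjusted p under 0.05).

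Under the Control diet the genotypes were compared to see whether they differed without alcohol. No class I or class II gene was called in edgeR, where 0.0143% of all genes were. At an unadjusted p under 0.05, where 7.31% of all genes lay, 3 of 23 class I genes were higher in Elf4-/- Control, H2-Q1 (log2 fold change 0.88 ± 0.32), H2-K2 (0.92 ± 0.36) and H2-Bl (1.47 ± 0.63), with edgeR adjusted p of 0.585, 0.646 and 0.677, and 0 class II genes were. DESeq2 called 0 of either class, where it called 79 of all genes. H2-K2 had 57.6 and 45.8 CPM in the WT libraries and 119 and 76.5 in the Elf4-/- ones. The class II median of 0.17 rested on single libraries, as it was −0.77 without Elf4-/- Control replicate 1 and 0.56 without replicate 2. Of the cell markers, 5 of 6 for sinusoidal endothelium and 3 of 5 for stellate cells were higher at an unadjusted p under 0.05. Of 10 Kupffer cell markers 0 were in either direction, and 0 of these 3 lists were called in edgeR. Their part in the class II values was not tested.

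Averaged over the diets, H2-Q1 was called higher in Elf4-/-, at 1.63 ± 0.25 (SE, adjusted p of 0.0486 in edgeR), where 0.114% of all genes were higher and 0.0214% lower. Within each diet both Elf4-/- libraries were above both WT libraries, and the size of the difference stayed between 1.36 and 1.82 in all 8 fits that left out a library. The call was lost in 6 of the 8, those that left out a WT or an Elf4-/- Control library, where the log2 fold change was 1.57 to 1.70, and also with scaling by library totals (adjusted p of 0.0662 in edgeR) and with a minimum mean of 10 counts (adjusted p of 0.0509 in edgeR). No class II gene was called in edgeR, with 1 (Cd74, −0.77 ± 0.27, SE, adjusted p of 0.489 in edgeR) at an unadjusted p under 0.05, where 7.94% of all genes lay. DESeq2 called 0 class II genes, where it called 118 of all genes. The class II median was −0.47, and −0.82, −0.21 and −0.23 without Elf4-/- Control replicate 1, its replicate 2 and Elf4-/- EtOH replicate 1.

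Whether the diet acted differently in the genotypes was tested as the interaction, the diet difference in Elf4-/- minus that in WT. No gene of the 31 was called in edgeR, as 0.0% of all genes were. DESeq2 called 0 of the 31, where it called 111 of all genes. At an unadjusted p under 0.05, where 10.1% of all genes lay, 1 of 8 class II genes (H2-Ab1, −1.09 ± 0.48, SE, adjusted p of 0.488 in edgeR) was lower and 1 of 23 class I genes (H2-Q1, 1.5 ± 0.50, SE, adjusted p of 0.356 in edgeR) was higher. All 8 class II values were negative, from −0.86 to −2.20 with a median of −1.12. Leaving out Elf4-/- Control replicate 1 gave a median of −0.30, and leaving out replicate 1 or 2 of Elf4-/- EtOH gave −0.71 or −1.83. The class I median was 0.17 with TMM and −0.29 with scaling by library totals, and −0.02 without WT Control replicate 2. The calls made in WT and not in Elf4-/- were therefore not shown to differ between the genotypes.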

How the data were processed

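RNA from whole liver was sequenced in 8 libraries. Per the labels and the submitters' processing notes, the authors aligned reads to mm10 with HISAT2, handled the alignments with SAMtools and obtained gene-level counts from HTSeq, and the deposited values are raw counts with no normalization. Tool versions, the annotation and the strand setting of the counting were not given in the sources used here. The 968 blank lines of the table were left out, and 0 sample columns lacked a matching label.

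Counts were fitted for all genes with edgeR 4.0.16 in R 4.3.3 (TMM factors, filterByExpr, quasi-likelihood F-test) in 1 model of the 4 groups over all 8 libraries, so each contrast used a shared spread, with a common biological coefficient of variation of 22.7%. Of 19267 genes 13993 were tested, and p-values were adjusted over them by the Benjamini-Hochberg method at 0.05. DESeq2 1.42.0 was an alternative, beside other scalings and filters, a fit on only the libraries compared, a replicate block and leaving out each library. The script was tested on simulated data. CPM were scaled by TMM factors. Errors are SD over 2 libraries or SE of the fit.

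Gene positions, exon lengths, overlaps and shared 75-base windows came from the GENCODE annotation of GRCm38, the assembly named mm10, and promoters from RefSeq. Every gene of the family with a mean of at least 10 counts was reported, each by class. The family was picked by gene symbol, but the choice of this family, the lists and the tests was made with earlier results of these data known.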

Additional observations from a re-analysis of the deposited data

How the results depend on the processing

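Counts of called genes were the least stable values, and no single gene reversed a called direction. For the diet in WT, 3 class II genes became 5 with DESeq2 and 6 with library totals or with only the 4 libraries compared. Calls over all genes went from 3025 to 2809 with DESeq2 and 4056 with library totals. For the diet in Elf4-/-, 0 class I genes became 2 with DESeq2 and 1 without the filter, while calls over all genes went from 404 to 811 and 564. For the mean diet effect, 7 class I genes became 4 with DESeq2 or without the filter. Calls over all genes went from 3916 to 3587 with DESeq2. For genotype under EtOH, 0 class I genes became 1 with DESeq2 or without the filter, and DESeq2 took the calls over all genes from 20 to 180. For the mean genotype effect, 1 class I gene became 0 with library totals or a minimum mean of 10 counts, and library totals took the calls over all genes from 19 to 13. The cause of these changes was not tested.

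With each library left out in turn, the counts ran from 0 to 6 (class II) and 1 to 5 (class I) for the diet in WT, and from 0 to 2 (class I) for the diet in Elf4-/-. They ran from 1 to 5 (class II) and 3 to 11 (class I) for the mean diet effect, from 0 to 3 (class II) and 0 to 1 (class I) for genotype under EtOH, and from 0 to 1 (class I) for the mean genotype effect.

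Same-numbered replicates share only a number: the correlation of their deviations was −0.134 to 0.114 over 9398 genes in the 6 pairs of groups. With that number as a replicate block, the mean diet effect had 4 class I genes, the mean genotype effect 0 and the diet in WT 2 class II genes, and the other counts of called genes did not change. Groups of 2 libraries and genes with few counts, such as H2-Q2, H2-DMb1 and Ciita, limit the precision, and reads shared by near-identical class I copies could not be separated.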
